A study of Mus musculus with 6 samples.

Results

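The genes described here are 43 interferon-stimulated genes, a fixed list of antiviral effectors, chemokines, nucleic acid sensors and transcription factors, matched by symbol. All 43 were found among the 19739 genes of the deposited table. They were measured by RNA sequencing in 6 libraries of cultured mouse mammary luminal cells, labelled as wild type. Cells of all 6 libraries were sorted by flow cytometry, grown with serum, EGF, FGF2, heparin and a ROCK inhibitor, and then starved of serum for 12 hours. For the next 24 hours, 3 control libraries stayed in serum-free medium without EFNA3 and 3 EFNA3 libraries received it at 1 µg/ml. EFNA3, or ephrin-A3, is a cell surface protein that binds Eph receptors on neighbouring cells, and here it was supplied in the medium. Strain, age, sex, the number of animals and the form of the protein were not stated in the labels. The labels do not say whether the 3 libraries of a group come from different mice or dishes, so a p-value covers only the spread among these libraries, which may be technical.

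Interferons signal through cell surface receptors and the kinases JAK1 and TYK2, which phosphorylate STAT factors. STAT2 with IRF9 is part of a complex that binds the interferon-stimulated response element, or ISRE, in front of antiviral genes. Members of the family can also be switched on without interferon, by IRF factors downstream of RNA and DNA sensors, and Cxcl10 in part by NF-kB. Epithelial cells hold many of these genes at a low basal level.

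The ISRE was sought in the 250 bases before the start site of each gene, using RefSeq promoter sequences of build GRCm38.p6, an earlier build than the mm39 named for the deposited table. A promoter entry was matched by symbol for 32 of the 43 genes. Entries were not matched for Oas1b, Oas2, Mx1, Mx2, Usp18, Rtp4, Ifi27, Dhx58, Parp9, Parp14 and Zbp1. The ISRE was searched as GAAA-NN-GAAA on either strand, where N is any base, so that the other strand reads TTTC-NN-TTTC; overlapping matches were all kept. It was present in 13 of the 32 genes (40.6%), against 3.46% of all 27025 genes with an entry. The motif TTCNNNGAA, the gamma-activated site of interferon gamma targets, was present in 8 of 32 (25.0%, against 8.13%). The NF-kB motif searched as GGGA-NN-TTCC was present in Cxcl10, Ifit2 and Isg20 (9.4%, against 1.36%).

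The stretches below hold the matches of 5 genes that stood higher with EFNA3 and have an ISRE match, of the near-identical pair Ifit3 and Ifit3b, and of Stat2 and Gbp7, which have a match and did not stand higher. Capitals mark the ISRE or, second in Cxcl10, the NF-kB motif, and each stretch reads 5′ to 3′ on the strand of its gene. They lie at chr5:92349024-92349117 (minus strand) for Cxcl10, chr12:26456548-26456587 (minus) for Rsad2, chr19:34640770-34640828 (plus) for Ifit1, chr4:156200860-156200911 (minus) for Isg15 and chr8:71537572-71537617 (minus) for Bst2. Ifit3 lies at chr19:34583358-34583431 (plus), Ifit3b at chr19:34607754-34607827 (plus), Stat2 at chr10:128270261-128270300 (plus) and Gbp7 at chr3:142530268-142530307 (plus).
Cxcl10: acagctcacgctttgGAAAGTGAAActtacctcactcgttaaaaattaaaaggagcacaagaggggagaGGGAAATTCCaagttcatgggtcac
Rsad2: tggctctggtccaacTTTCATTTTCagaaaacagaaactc
Ifit1: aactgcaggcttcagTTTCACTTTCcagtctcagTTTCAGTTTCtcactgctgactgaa
Isg15: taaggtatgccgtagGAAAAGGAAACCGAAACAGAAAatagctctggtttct
Bst2: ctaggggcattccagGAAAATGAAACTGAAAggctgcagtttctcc
Ifit3: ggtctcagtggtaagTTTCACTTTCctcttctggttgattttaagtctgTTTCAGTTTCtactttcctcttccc
Ifit3b: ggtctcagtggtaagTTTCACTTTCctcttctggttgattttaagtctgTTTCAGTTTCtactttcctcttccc
Stat2: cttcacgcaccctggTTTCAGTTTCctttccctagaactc
Gbp7: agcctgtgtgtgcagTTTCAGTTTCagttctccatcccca

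Ifit1 holds 2 separate ISRE matches, and Isg15 holds 3 that overlap. The 74 bases printed for Ifit3 and Ifit3b are the same letter for letter.

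Values are the authors' log2 expression values, which share 1 common distribution over the 6 libraries, with a median of 8.10 over all genes; depth is unknown. Of the 43 genes, 41 passed the filter on low values (at least 3.32, or 10 on the linear scale, in at least 3 libraries). Ifit3b and Oas3 did not pass. No member passed through the EFNA3 libraries alone. One library stood apart: EFNA3 replicate 1 departed from the other libraries with transcript length, with a Spearman correlation across 16197 genes of -0.505 between length and its deviation from the mean of 6 libraries, against 0.016 to 0.353 in the other libraries. Main values are therefore given with and without it, and the plot of all 41 differences shows each tested gene both ways. The luminal markers Krt8, Krt18, Epcam and Elf5 were present at 12.57 to 14.57 on average in controls, but so were the basal keratins Krt14 and Krt5 at 16.26 and 14.92. Of the other basal markers, Oxtr, Trp63 and Mylk stood at 13.44, 11.79 and 9.38 on average in controls. Acta2 and Tagln stood at 7.77 and 5.20, and Cnn1 and Myh11 were below the filter. The fibroblast markers Pdgfra, Col1a1, Dcn, Col1a2 and Col3a1 stood at 10.29, 7.90, 7.60, 5.03 and 4.27 on average in controls. With EFNA3, Pdgfra was lower (-0.22) with no overlap, and the other 4 had higher group means. The endothelial marker Pecam1 stood at 8.27 in controls, and Cdh5 and Kdr did not pass the filter. The part of these stromal markers was not tested. Krt7 and Krt19 were higher (0.22 and 0.21) and Mylk and Prlr lower (-0.45 and -0.31) with no overlap and an unadjusted limma p under 0.05; their part in the results was not tested. Of 18 immune cell markers, Cd68 and Csf1r passed the filter, Lyz2 did not, and 15 were not found by symbol in the deposited table. The summed linear level of those 3 ran from 155.6 to 202.9 in controls and from 166.8 to 221.5 in EFNA3 libraries. Lyz2 alone stood at 5.87 in EFNA3 replicate 1, the highest library for Cxcl10, Rsad2, Ifit1 and Isg15, and between 1.37 and 3.16 in the other 5; its part in the results was not tested. In bulk RNA, a change in the number of cells of a type and a change in RNA per cell cannot be told apart.

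The comparison asks how EFNA3 protein alters gene expression in luminal cells. A handful of interferon-stimulated genes stood higher in every library given EFNA3, led by Cxcl10 (3.64-fold), Rsad2 (2.33-fold), Ifit1 (2.06-fold) and Isg15 (1.63-fold). The sensor kinase gene Eif2ak2, the editing gene Adar and the PARP and ubiquitin ligase genes did not share this, and the median difference over the 41 tested genes was 0.01 on the log2 scale, against 0.0038 over all tested genes. The group mean was higher with EFNA3 for 21 of 41 (51.2%), against 50.8% of all 16394 tested genes. No member passed the limma test adjusted over all tested genes (0% of all genes passed; smallest adjusted p = 0.55 for the members and for all genes). At an unadjusted limma p under 0.05, 9 members were higher (22.0%, against 3.87% of all tested genes) and 0 were lower (against 2.86%). In 9 members every EFNA3 library lay above every control (22.0%, against 8.53%), and in 1, Trim25, every EFNA3 library lay below (2.4%, against 7.45%). The list was chosen with earlier results of these data known. The shares of members here and below are therefore a description and not independent support. With 3 libraries a group, the smallest p an exact two-sided permutation test allows is 0.1.

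**Figure D1:**
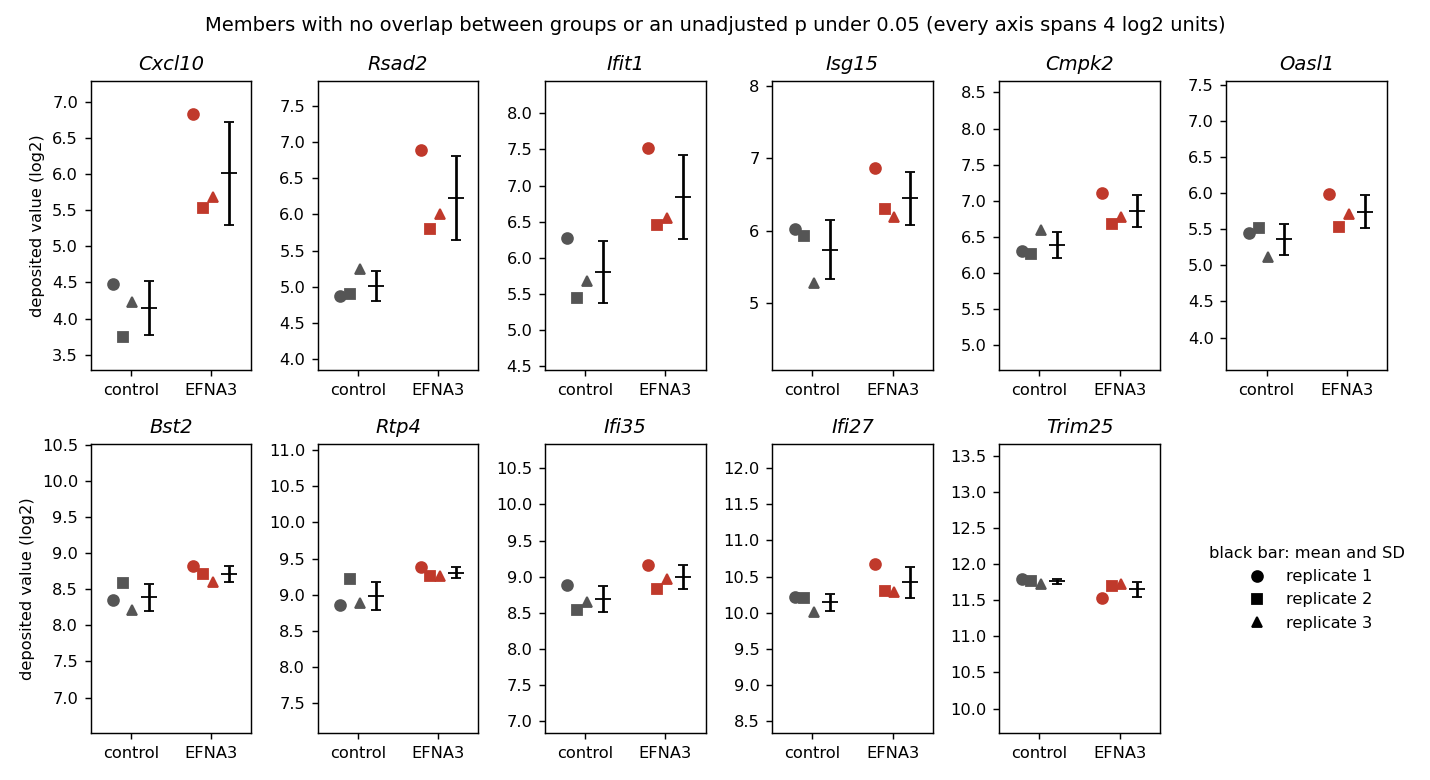
Deposited log2 value (vertical axes, each spanning 4 log2 units) of the 11 interferon-stimulated genes with no overlap between groups or an unadjusted limma p under 0.05, by group; points are libraries, with the shape giving the replicate, and the black bar is the mean with its SD. Cxcl10 ran from 3.74 to 4.48 in controls and from 5.52 to 6.83 with EFNA3, while the groups of Trim25, the 1 gene lower with EFNA3, lay close together.

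The chemokine genes parted. Cxcl10 encodes a ligand of CXCR3 that draws in activated T and NK cells, and stood at 4.48, 3.74 and 4.22 in control replicates 1, 2 and 3 and at 6.83, 5.52 and 5.68 in EFNA3 replicates 1, 2 and 3. The groups were separated by 1.05 between the highest control and the lowest EFNA3 library. Its log2 difference was 1.86 (SE 0.37, limma adjusted p = 0.55), with a 95% interval from 1.02 to 2.71. Of 16394 tested genes, Cxcl10 had the smallest unadjusted p in the limma fit and ranked 2 by size of increase. Without EFNA3 replicate 1 the difference was 1.45. Cxcl10 was a low gene: per kilobase of transcript, its control level lay at percentile 7.23 of tested genes. Cxcl9, which encodes another CXCR3 ligand, stood at 4.27, 3.27 and 3.04 in controls and at 4.59, 3.44 and 3.07 with EFNA3. The Cxcl9 groups overlapped, with a difference of 0.17 (SE 0.51) that turned to -0.27 without EFNA3 replicate 1. Whether the responses of Cxcl10 and Cxcl9 differ was not tested.

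IFIT proteins bind viral RNA and block its translation. Ifit1, which recognises RNA caps that lack a host methyl mark, stood at 6.28, 5.45 and 5.69 in controls and at 7.52, 6.46 and 6.56 with EFNA3. All EFNA3 libraries lay above the controls, although EFNA3 replicate 2 was only 0.18 above control replicate 1. The log2 difference was 1.04 (SE 0.32, limma adjusted p = 0.55), or 0.70 without EFNA3 replicate 1. Ifit2, an RNA-binding relative, ran from 6.71 to 6.89 in controls and from 6.30 to 6.87 with EFNA3, a difference of -0.18 (SE 0.18), or -0.31 without EFNA3 replicate 1. Ifit3 stood at 3.02, 5.32 and 3.88 in controls and at 5.71, 4.65 and 3.95 with EFNA3. These groups overlapped widely, and the difference of 0.70 (SE 0.62) was 0.23 without EFNA3 replicate 1. Ifit3b, the near-identical copy that did not pass the filter, stood at 1.43, 4.74 and 2.90 in controls and at 5.66, 3.07 and 3.24 with EFNA3, a difference of 0.96 that was not tested. In both copies control replicate 2 was the highest control and EFNA3 replicate 1 the highest library. Of the 50-base windows of annotated Ifit3 transcripts, 51.2% also occur in Ifit3b, so the authors' counting could have split or dropped reads between them, and the values of both are uncertain.

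OAS enzymes make short 2′-5′ linked oligoadenylates that activate RNase L. Of 5 tested OAS genes, 2 had higher and 3 lower group means, with differences from -0.17 to 0.38. Oasl1, which limits translation of Irf7 mRNA, stood at 5.45, 5.51 and 5.11 in controls and at 5.98, 5.52 and 5.71 with EFNA3. The Oasl1 groups did not overlap, by a margin of 0.01, and the difference was 0.38 (SE 0.22, limma adjusted p = 0.55). Oas1b differed by 0.22 (SE 0.23; 0.12 without EFNA3 replicate 1), Oas1a by -0.13 (SE 0.16), Oas2 by -0.17 (SE 0.52) and Oasl2, the most abundant of the 5 per kilobase, by -0.01 (SE 0.13). Without EFNA3 replicate 1, Oas2 stood at -0.53 and Oasl2 at 0.03. Oas3, below the filter in all 6 libraries, ran from 1.27 to 3.28 in controls and from 0.56 to 3.31 with EFNA3, a difference of 0.14 that was not tested.

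**Figure D2:**
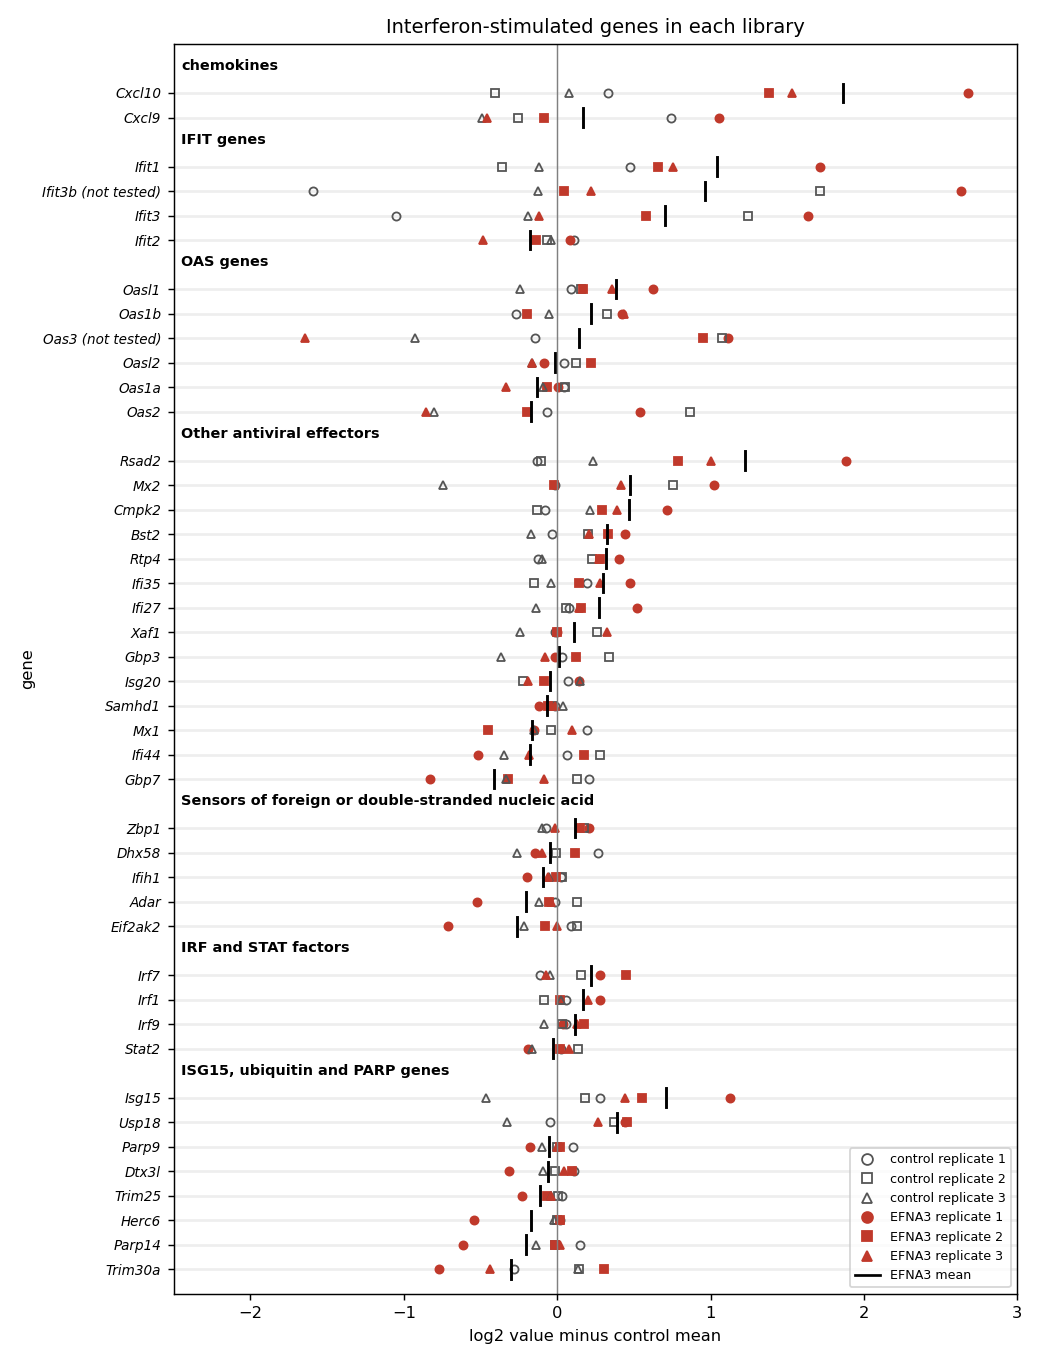
Log2 value of each of the 43 interferon-stimulated genes minus its control mean (horizontal axis), by function group; open grey shapes are controls, filled red shapes EFNA3 libraries and black bars the EFNA3 mean. EFNA3 replicate 1 is the highest library for 15 of the 41 tested genes, such as Cxcl10 at 2.68 above the control mean, and the lowest for 13, such as Eif2ak2 at -0.71.

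Among 14 other antiviral effectors, 9 had higher group means (against 50.8% of all tested genes) and 6 of these had an unadjusted limma p under 0.05 (against 3.87%). Rsad2 encodes viperin, an enzyme that makes a chain-terminating nucleotide from CTP. It stood at 4.88, 4.90 and 5.24 in controls and at 6.89, 5.79 and 6.01 with EFNA3. The lowest EFNA3 library was 0.55 above the highest control. The log2 difference was 1.22 (SE 0.30, limma adjusted p = 0.55), with a 95% interval from 0.55 to 1.90, and it was 0.89 without EFNA3 replicate 1. Rsad2 ranked 27 of 16394 tested genes by size of increase.

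Cmpk2, a mitochondrial nucleotide kinase gene next to Rsad2 in the genome, stood at 6.31, 6.26 and 6.60 in controls and at 7.11, 6.68 and 6.78 with EFNA3. The Cmpk2 groups did not overlap, and the difference was 0.47 (SE 0.18, limma adjusted p = 0.55), or 0.34 without EFNA3 replicate 1. Rtp4, a receptor-transporting protein induced by interferon, stood at 8.86, 9.21 and 8.89 in controls and at 9.39, 9.26 and 9.26 with EFNA3. Its EFNA3 libraries lay just above control replicate 2, with a difference of 0.32 (SE 0.11), or 0.27 without EFNA3 replicate 1. Bst2, or tetherin, which holds budding virus at the cell surface, stood at 8.35, 8.59 and 8.22 in controls and at 8.82, 8.71 and 8.59 with EFNA3. The Bst2 groups were only 0.0048 apart, with a difference of 0.33 (SE 0.12), or 0.27 without EFNA3 replicate 1. Ifi27, an interferon-induced mitochondrial and nuclear membrane protein gene, stood at 10.22, 10.20 and 10.01 in controls and at 10.67, 10.30 and 10.29 with EFNA3, with no overlap and a difference of 0.27 (SE 0.12), or 0.15 without EFNA3 replicate 1. Ifi35, whose product pairs with NMI, stood at 8.89, 8.54 and 8.65 in controls and at 9.16, 8.83 and 8.97 with EFNA3. For Ifi35, EFNA3 replicate 2 lay below control replicate 1, and the difference was 0.30 (SE 0.12), or 0.21 without EFNA3 replicate 1.

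The remaining 8 effector genes overlapped between groups. Gbp7, a guanylate-binding GTPase gene, was the lowest of all members by difference, at -0.41 (SE 0.21; 95% interval -0.89 to 0.06), and stood at -0.20 without EFNA3 replicate 1. Its relative Gbp3 differed by 0.01 (SE 0.19). The dynamin-like GTPase genes pointed in opposite directions, Mx2 at 0.47 (SE 0.43; 0.20 without EFNA3 replicate 1) and Mx1 at -0.17 (SE 0.21). Samhd1, which breaks down deoxynucleotides, was the most abundant member per kilobase, at percentile 93.2 of tested genes, and differed by -0.06 (SE 0.06). The exonuclease gene Isg20 differed by -0.05 (SE 0.15), Ifi44 by -0.18 (SE 0.21; -0.0055 without EFNA3 replicate 1) and Xaf1, an inhibitor of XIAP, by 0.11 (SE 0.16).

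Of 5 sensors of double-stranded or Z-form nucleic acid, 1 had a higher group mean with EFNA3 (against 50.8% of all tested genes), or 2 without EFNA3 replicate 1 (against 49.8%), and 0 had an unadjusted limma p under 0.05. Their median difference was -0.09, or -0.04 without that library. Eif2ak2 encodes PKR, the kinase that stops translation on double-stranded RNA. It stood at 10.69, 10.73 and 10.38 in controls and at 9.89, 10.52 and 10.59 with EFNA3, so that 1 library, EFNA3 replicate 1, was apart from the other 5. Its difference was -0.26 (SE 0.18), and -0.04 without that library. Adar, which edits adenosine in double-stranded RNA, differed by -0.21 (SE 0.13), and by -0.05 without EFNA3 replicate 1. Ifih1 (MDA5) differed by -0.09 (SE 0.08), Dhx58 (LGP2) by -0.04 (SE 0.16) and Zbp1, a sensor of Z-form nucleic acid, by 0.12 (SE 0.13).

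The IRF and STAT factors that drive the family showed small differences. Irf7, itself an interferon-stimulated gene, ran from 7.59 to 7.85 in controls and from 7.63 to 8.15 with EFNA3, a difference of 0.22 (SE 0.15; 95% interval -0.13 to 0.57). Irf1 differed by 0.17 (SE 0.09; interval -0.04 to 0.37) and Irf9 by 0.11 (SE 0.08; interval -0.06 to 0.29). Stat2 differed by -0.03 (SE 0.11; interval -0.27 to 0.21). Without EFNA3 replicate 1, 4 of 4 had higher group means, between 0.05 and 0.19.

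ISG15 is a ubiquitin-like protein that interferon-treated cells attach to other proteins or secrete. Isg15 stood at 6.02, 5.92 and 5.27 in controls and at 6.86, 6.29 and 6.18 with EFNA3. All EFNA3 libraries lay above the controls, by 0.17 at the narrowest, with a difference of 0.71 (SE 0.26, limma adjusted p = 0.55) that was 0.50 without EFNA3 replicate 1. Usp18, which removes ISG15 and dampens the interferon receptor, stood at 6.32, 6.73 and 6.03 in controls and at 6.80, 6.82 and 6.62 with EFNA3. Control replicate 2 lay within the Usp18 range of the EFNA3 group, and the difference was 0.39 (SE 0.20), or 0.36 without EFNA3 replicate 1. The ligase genes had lower group means with EFNA3. Herc6, the main ISG15 ligase of the mouse, differed by -0.17 (SE 0.18), Trim25 by -0.11 (SE 0.07) and Trim30a by -0.30 (SE 0.29). Whether their responses differ from that of Isg15 was not tested. Trim25 stood at 11.79, 11.77 and 11.72 in controls and at 11.53, 11.70 and 11.72 with EFNA3, so that the groups were 0.0045 apart. The ADP-ribosyltransferase genes Parp14 and Parp9 differed by -0.20 (SE 0.16) and -0.05 (SE 0.08), and Dtx3l, the ubiquitin ligase partner of PARP9, by -0.06 (SE 0.11). Without EFNA3 replicate 1, Herc6, Parp14, Parp9 and Dtx3l stood between 0.0038 and 0.07, Trim25 at -0.05 and Trim30a at -0.07.

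EFNA3 replicate 1 was the highest of the 6 libraries for 15 of the 41 tested genes and the lowest for 13. Control replicate 3 was the lowest for another 13. Without EFNA3 replicate 1, 27 of 41 had higher group means (against 49.8% of all tested genes), with a median difference of 0.05. In that setting 6 were higher at an unadjusted limma p under 0.05 (against 2.41%): Cxcl10, Rsad2, Ifit1, Rtp4, Bst2 and Irf9. Then 10 had no overlap upwards (against 10.4%) and 2, Trim25 and Ifit2, downwards (against 9.2%). The count at an unadjusted p also moved with the controls. Without control replicate 1 it was 5 (Cxcl10, Rsad2, Ifit1, Isg15 and Ifi35), against 568 of all 16394 tested genes. Without control replicate 3 it was also 5, against 740 of all tested genes, with Cxcl10, Rsad2, Ifit1 and Cmpk2 higher and Gbp7 lower. With all libraries it was 9, against 1104 of all tested genes.

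Differences varied with transcript length. The 19 members with a longest annotated transcript of up to 3011 nt, the median of tested genes, had a median difference of 0.30, and 16 of 19 were higher (84.2%). Of the 22 longer members 5 were higher (22.7%), with a median of -0.10. With EFNA3 replicate 1 left out, 16 of the shorter and 11 of the longer members were higher, with medians of 0.20 and -0.0008. The same split held over all tested genes, 68.5% of the shorter and 32.9% of the longer being higher. Across the 41 members the Spearman correlation of length with the difference was -0.67, or -0.49 without EFNA3 replicate 1; members share their libraries, and this is a description. Of the 9 genes with no overlap upwards, Rsad2 (4189 nt) and Cmpk2 (3274 nt) were longer than the median of tested genes, and Isg15 (756 nt), Bst2 (792 nt) and Ifi27 (977 nt) were the shortest of all members.

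**Figure D3:**
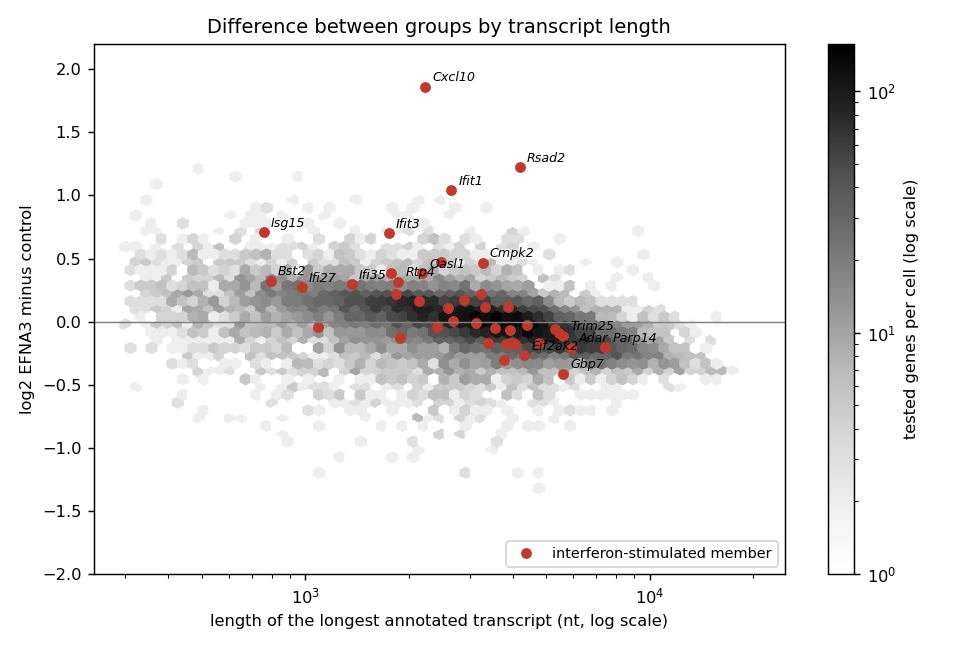
Log2 difference between EFNA3 and control (vertical axis) against the length of the longest annotated transcript (horizontal, log scale, 300 to 20000 nt); grey cells count tested genes, of which 177 lie outside the axes, and red points are the 41 tested interferon-stimulated genes. The grey cloud falls from left to right, and Cxcl10, Rsad2 and Ifit1 lie above it at differences of 1.86, 1.22 and 1.04.

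A trend on transcript length and GC share was then taken out of each library. The differences of Cxcl10, Rsad2, Ifit1 and Cmpk2 were 1.83, 1.27, 1.02 and 0.47, close to the values as deposited. Those of Isg15, Bst2 and Ifi27 were 0.58, 0.18 and 0.16, against 0.71, 0.33 and 0.27. In that setting 24 of 41 members had higher group means (against 54.4% of 16197 genes), 7 were higher at an unadjusted limma p under 0.05 (against 4.56%), 8 had no overlap upwards (against 8.87%) and 0 downwards (against 6.26%). The median difference was 0.04. Over 17 fits, Rsad2 and Ifit1 kept an unadjusted limma p under 0.05 in 17 of 17. Cxcl10 kept it in 16 of the 16 fits in which it was tested, the exception being the stricter filter, which it did not pass. The other members lost it more often: Rtp4 kept it in 15 of 17 fits, Isg15 in 14, Cmpk2 in 12, Bst2 in 11, and Ifi27 and Ifi35 in 8 each. With the length and GC trend taken out, Bst2, Ifi27 and Ifi35 no longer had it and Irf9 did. The fits share the same libraries, and centring gave the same calls as no centring. The counts of fits are therefore a description and not repeated support.

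**Figure D4:**
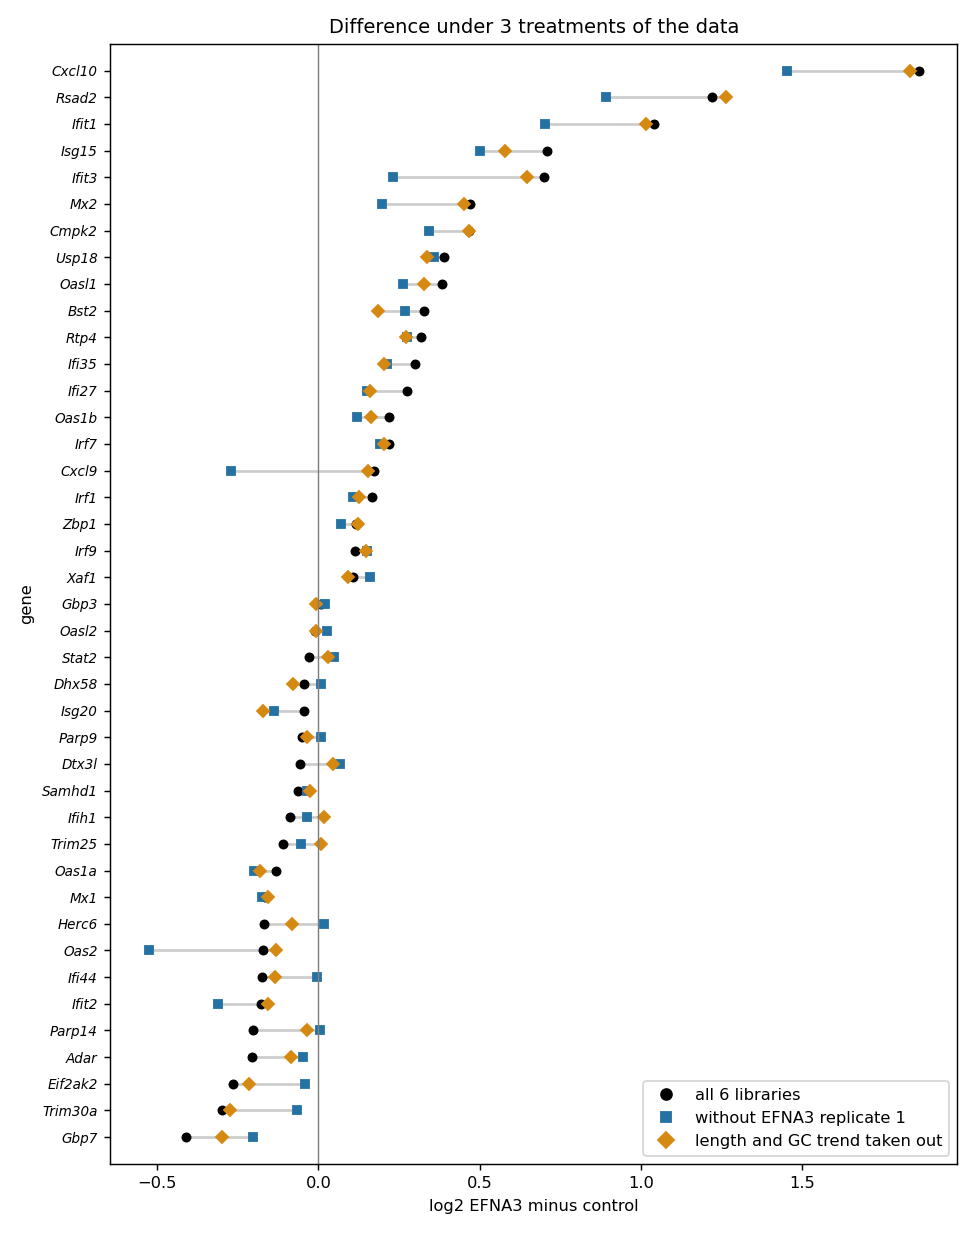
Log2 difference between EFNA3 and control (horizontal axis) of the 41 tested interferon-stimulated genes with all 6 libraries (black circles), without EFNA3 replicate 1 (blue squares) and with the length and GC trend taken out (orange diamonds). Cxcl10, Rsad2 and Ifit1 stay rightmost under all 3, with lowest values of 1.45, 0.89 and 0.70, while most genes below 0 move toward 0 without EFNA3 replicate 1.

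Genes with an ISRE match and genes without one were set side by side. Of 11 tested members with a match, 7 had higher group means (against 50.8% of all tested genes) and 5 had no overlap upwards (against 8.53%), with a median difference of 0.33. Of 19 tested members with a promoter entry and no match, 8 were higher and 2 had no overlap upwards, with a median of -0.05. These medians were 0.23 and 0.02 without EFNA3 replicate 1. The genes with a match were also shorter, with a median transcript of 2656 nt against 3818 nt, and the part of length was not tested. With the length and GC trend taken out, the medians were 0.18 with a match and 0.02 without. In that setting 7 of 11 and 11 of 19 were higher (against 54.4% of 16197 genes). Stat2 and Gbp7 have 1 match each, as Rsad2 does, and stood at -0.03 and -0.41 with all libraries as deposited. Oas1a and Gbp3 hold 2 overlapping matches each and stood at -0.13 and 0.01. Trim30a holds 1 match and stood at -0.30. A match, single or repeated, therefore did not go with a higher value in each gene.

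By level, the 20 members below the median of the tested members in controls had 13 higher group means and a median difference of 0.20. The other 21 had 8 higher and a median of -0.05, against 50.8% higher over all tested genes, not split by level. With EFNA3 replicate 1 left out, 14 and 13 were higher (against 49.8%), with medians of 0.14 and 0.03. The split used the same control values that enter the difference, so no dependence on level can be read from it. The lower genes also varied more, with a median SD of 0.28 in controls and 0.34 with EFNA3, against 0.14 and 0.17. Per kilobase, 15 of 41 members lay above the median of tested genes in controls.

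Other genes of the pathway, 118 in all and none of them members, were listed beside the members. Of 82 tested, 39 were higher and 43 lower, with a median of -0.01 and no adjusted limma p under 0.05. Without EFNA3 replicate 1, 46 were higher, with a median of 0.02. With all libraries, 4, all named below, were higher at an unadjusted limma p under 0.05 (4.88%, against 3.87% of all tested genes). Lower at that level was 1, Ifnlr1 (against 2.86%). No overlap was seen upwards in 9 (10.98%, against 8.53%) and downwards in 3 (3.66%, against 7.45%). Without EFNA3 replicate 1 these were 12 (against 10.4%) and 6 (against 9.2%). Of 11 interferon genes, 10 were not found by symbol in the deposited table. The other, Ifnz, did not pass the filter, standing at 4.63 in EFNA3 replicate 1 and between 0.87 and 2.49 in the other 5 libraries. All 6 receptor genes were tested. The interferon gamma receptor gene Ifngr2 stood higher by 0.20 (SE 0.08) and the lambda receptor gene Ifnlr1 lower, at -0.22 (SE 0.10), each with no overlap, or 0.14 and -0.14 without EFNA3 replicate 1; Ifnar1, Ifnar2, Ifngr1 and Il10rb lay between -0.10 and 0.10. The kinase genes Jak1, Tyk2 and Jak2 were lower by group mean, at -0.17 (SE 0.10), -0.17 (SE 0.08, with no overlap) and -0.06 (SE 0.07). Their longest transcripts have 4906, 4828 and 5030 nt, and of all tested genes above 3011 nt 32.9% were higher. Stat3 stood at -0.03 (SE 0.07). In the libraries other than EFNA3 replicate 1, the differences of Jak1, Tyk2, Jak2 and Stat3 were -0.05, -0.10, -0.06 and 0.02. The phosphatase gene Ptpn2, which dephosphorylates JAK and STAT proteins, was higher by 0.26 (SE 0.10), or 0.14 without EFNA3 replicate 1. Among 53 tested interferon-inducible genes outside the list, 27 were higher and 26 lower, with a median of 0.0046. Gbp2 (0.18, SE 0.08) and Ifitm3 (0.24, SE 0.11) were those with an unadjusted limma p under 0.05, near the 3.87% of all tested genes. Of the 53, 7 had no overlap upwards (13.2%, against 8.53%) and 0 downwards (against 7.45%). Leaving out EFNA3 replicate 1 gave 8 upwards (against 10.4% of all tested genes) and 3 downwards (against 9.2%). The differences of Gbp2 and Ifitm3 were 0.17 and 0.12 without EFNA3 replicate 1.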

How the data were processed

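RNA libraries were prepared with a stranded mRNA kit from total RNA, per the labels' protocols. Trim Galore, Subread and featureCounts and the genome build mm39 are named per the submitters' processing notes. The authors deposited 1 table of values for the 6 libraries that, from their range of -0.79 to 18.11 and near-identical sorted columns, were read as log2 expression values the authors had normalized to a common distribution before deposit. How counts were turned into these log2 values is not given in the sources used here, depth is unknown, and no count test was possible. Every sample column matched a labelled library, and 0 columns were without a sample.

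Genes at or above 10 on the linear scale (3.32 on the log2 scale) in at least 3 of 6 libraries were tested with limma 3.58.1 in R 4.3.3, EFNA3 against control, with a mean-variance trend, no block and Benjamini-Hochberg adjustment over 16394 genes. The script was tested on simulated data. Intervals are 95% intervals from the same fit. Transcript length is that of the longest GENCODE M21 transcript, matched by symbol for 98.8% of tested genes; levels per kilobase subtract the log2 of that length. Library values are given for genes with no overlap between groups or an unadjusted p under 0.05, and others by their difference or range; pathway genes outside the list are named for an unadjusted p under 0.05 or as receptors and kinases, and 1 pathway gene is not reported here. The members and all lists were chosen with earlier results of these data known. Alternatives were other filters, a pseudocount of 5, centring, no variance trend, library weights, replicate blocks, a length and GC correction and leaving out each library.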

Additional observations from a re-analysis of the deposited data

How the results depend on the processing

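The median difference of the members, 0.01, was 0.107 with no filter on low values, and between -0.045 and 0.125 when 1 library was left out. The number of members at an unadjusted limma p under 0.05, 9 with all libraries, was between 5 and 10 when 1 library was left out. Over all 16394 tested genes that number was 1104 with all libraries and between 512 and 2478 when 1 library was left out. With the length and GC trend taken out and EFNA3 replicate 1 left out together, it was 5 members, against 718 of 16197 genes. This alternative was chosen after seeing the data.

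Libraries with the same replicate number in the titles correlated at -0.105, 0.030 and -0.318, and not every library correlated best with its own number. These correlations of deviations from the group means cannot show whether same-numbered libraries share a mouse or dish. With a replicate block by titles, 0 genes passed the adjusted test and the smallest adjusted limma p was 0.67. When the replicate block instead followed the sample descriptions, where control replicate 2 and EFNA3 replicate 2 stand alone and the pairs correlate at -0.105 and -0.318, 71 genes passed, 1 of them a member: Cxcl10 at 1.90 (limma adjusted p = 0.0071). In that fit control replicate 2 and EFNA3 replicate 2 do not bear on the difference, which rests on replicates 1 and 3 of each group. Only 1 residual degree of freedom is left, so the passing genes are not a firm call. The median was then 0.119, and Oas2 stood at 0.27 and Stat2 at 0.014.

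Signs turned for the genes below, among them Trim30a, Parp14, Ifi44, Cxcl9, Oas2 and Herc6, which stood between -0.30 and 0.17 with all libraries; the cause was not tested. With library weights Dhx58 stood at 0.014, Ifi44 at 0.0097, Cxcl9 at -0.18, Oasl2 at 0.074, Trim30a at 0.024, Stat2 at 0.0215 and Dtx3l at 0.047. With length and GC taken out Trim25 stood at 0.0095, Ifih1 at 0.016, Gbp3 at -0.0078, Stat2 at 0.029 and Dtx3l at 0.045. With EFNA3 replicate 1 left out as well, Dhx58 stood at 0.0029, Parp9 at 0.016, Ifi44 at 0.0047, Cxcl9 at -0.28, Oasl2 at 0.032, Herc6 at 0.041, Parp14 at 0.058, Stat2 at 0.072 and Dtx3l at 0.10. Leaving out 1 library turned 12 genes, with ranges of -0.17 to 0.091 for Dhx58, -0.13 to 0.066 for Oasl2, -0.57 to 0.26 for Oas2, -0.11 to 0.049 for Stat2, -0.17 to 0.18 for Gbp3, -0.27 to 0.54 for Cxcl9, -0.16 to 0.028 for Isg20, -0.015 to 0.24 for Xaf1, -0.10 to 0.0094 for Parp9, -0.26 to 0.0165 for Herc6, -0.31 to 0.0038 for Parp14 and -0.13 to 0.068 for Dtx3l. Depth is unknown, so no limit from counting error can be given.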

Other observations

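A pattern across libraries was chosen after the values were seen: control replicate 2 as the highest control together with EFNA3 replicate 1 as the highest EFNA3 library. It held for 10 of 43 interferon-stimulated genes (Ifit3, Ifit3b, Oas1a, Oas2, Oas3, Oasl1, Mx2, Bst2, Rtp4 and Zbp1), against 8.96% of all genes in the table. Of the 9 members with a control mean under 50 on the linear scale, 6 showed it.

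Neighbouring members of the genome were set side by side. Dtx3l and Parp9 stood close to each other, at -0.06 and -0.05, next to Parp14 at -0.20. Rsad2 and Cmpk2 stood at 1.22 and 0.47, Ifit3 and Ifit2 at 0.70 and -0.18, Oasl1 and Oasl2 at 0.38 and -0.01, and Gbp3 and Gbp7 at 0.01 and -0.41; Oas2 stood at -0.17 and its untested neighbour Oas3 at 0.14. These differences between neighbours were not tested.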
